A study of Homo sapiens with 6 samples.

Results

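GABA (gamma-aminobutyric acid) signalling was described here through 5 genes, GAD1 and GAD2, which make GABA from glutamate, GABBR1 and GABBR2, the subunits of the metabotropic GABA-B receptor, and GABRA3, an alpha subunit of the chloride-conducting GABA-A receptor. They were chosen by symbol, and all 5 were found among the 17081 genes of the count table. No transporter is among these genes, and uptake is described below from a wider gene list. RNA was read in 6 tumour libraries of a sciatic nerve invasion model made with DMS114, a human cell line of small cell lung cancer. The libraries came from 3 distal and 3 proximal invaded regions, with no other treatment, allele, time or host species given in the labels. Whether the 3 libraries of a region stem from different animals is not stated, and each p-value below reflects the spread between these samples only, which may be technical.

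GABA is the main inhibitory transmitter of the adult brain, and outside the brain it is made and sensed by pancreatic islets and other tissues. GABA-A receptors are channels of 5 subunits that open when GABA binds. GABA-B receptors are obligate pairs of a GABBR1 chain, which binds GABA, and a GABBR2 chain, which couples to inhibitory G proteins. β-alanine, which the title of the series names, is a close chemical relative of GABA that is carried by some GABA transporters and can act on GABA-A and glycine receptors.

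Libraries held 16171106 to 26116191 counts. Of the markers of small cell lung cancer, YAP1 had 167 to 187 CPM (counts per 1000000 reads, scaled by TMM). SYP (synaptophysin) had 56.9 to 63.9 CPM, while the subtype regulator POU2F3 had at most 6 reads in any library. Among the other markers, ENO2 had 22.4 to 51.0 CPM, CHGA 6.35 to 7.57 CPM and INSM1 0.837 to 1.47 CPM. NEUROD1 had 106 reads in distal 3 and 1 to 15 in the other libraries. NCAM1 had 64 reads in distal 3 and 8 to 22 in the other libraries. Skeletal muscle markers summed to 8.90, 28.8 and 2318 CPM in distal 1, 2 and 3, against 10.7, 38.5 and 325.2 CPM in proximal 1, 2 and 3. Schwann cell markers summed to 86.8, 130.0 and 82.2 CPM in distal and 73.7, 71.6 and 166 CPM in proximal libraries. Of 13382 genes tested between distal and proximal tumour with edgeR (quasi-likelihood test, Benjamini-Hochberg adjustment, threshold 0.05), 0 were called (0%), 178 had an unadjusted p under 0.05 (1.33%), and the groups did not overlap for 841 (6.28%). DESeq2 called 1 of 13349 genes (0.00749%), EDIL3, which is not a GABA gene, and limma-voom called 0.

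The promoters of both enzyme genes and both GABA-B receptor genes are shown because the genes of each pair were read at very different levels in the same tumours. Of the 5 genes, 4 matched a RefSeq promoter window (GRCh38.p14, 250 bases before to 50 bases after the annotated start), and GABRA3 did not. The windows lie at chr2:170816637-170816936 on the plus strand for GAD1, chr10:26216122-26216421 on the plus strand for GAD2, chr6:29627964-29628263 on the minus strand for GABBR1 and chr9:98708886-98709185 on the minus strand for GABBR2. Each is printed 5′ to 3′ along the gene, and capitals mark TGACGTCA, the full cAMP response element, as well as TATAAA, a core promoter element, and the Sp1-type box GGGCGG, all searched on both strands with overlapping matches counted.
GAD1: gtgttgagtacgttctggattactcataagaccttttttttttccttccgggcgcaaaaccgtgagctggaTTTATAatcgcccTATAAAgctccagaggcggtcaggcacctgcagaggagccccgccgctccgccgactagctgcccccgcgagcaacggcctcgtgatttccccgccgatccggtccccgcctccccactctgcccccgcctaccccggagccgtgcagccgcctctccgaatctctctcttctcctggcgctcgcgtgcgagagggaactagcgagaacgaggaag
GAD2: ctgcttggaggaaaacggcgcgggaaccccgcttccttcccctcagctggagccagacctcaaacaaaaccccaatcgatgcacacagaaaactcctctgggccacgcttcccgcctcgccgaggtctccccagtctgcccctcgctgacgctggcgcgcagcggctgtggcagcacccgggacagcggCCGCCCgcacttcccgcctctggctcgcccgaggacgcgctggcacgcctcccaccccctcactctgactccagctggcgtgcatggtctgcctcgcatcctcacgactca
GABBR1: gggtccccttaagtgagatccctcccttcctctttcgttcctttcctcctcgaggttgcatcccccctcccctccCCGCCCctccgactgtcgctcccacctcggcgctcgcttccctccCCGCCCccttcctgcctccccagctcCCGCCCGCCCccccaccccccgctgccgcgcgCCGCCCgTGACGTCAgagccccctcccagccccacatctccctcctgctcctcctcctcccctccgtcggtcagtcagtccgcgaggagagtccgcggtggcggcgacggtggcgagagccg
GABBR2: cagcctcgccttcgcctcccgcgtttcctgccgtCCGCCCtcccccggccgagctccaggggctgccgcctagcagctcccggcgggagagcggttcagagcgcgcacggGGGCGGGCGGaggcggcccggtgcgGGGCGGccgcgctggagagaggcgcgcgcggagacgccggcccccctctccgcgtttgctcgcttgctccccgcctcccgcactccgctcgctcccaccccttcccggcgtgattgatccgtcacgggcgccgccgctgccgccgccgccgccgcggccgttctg

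Positions count from the transcript start of each window. For GAD1 and GABBR1 this start lies inside the gene span given below and not at its edge. GAD1 held 2 TATAAA matches, the first at position -179 from the annotated start, and no GGGCGG. GAD2 held 1 GGGCGG match and no TATAAA in the window shown, and likewise in its second RefSeq window at chr10:26216524-26216823. GABBR1 held 1 TGACGTCA, at position -65, and 5 GGGCGG matches, and GABBR2 held 4 GGGCGG matches. Among 35116 RefSeq windows of the same length, 1.85% held TGACGTCA, 11.5% TATAAA and 45.0% GGGCGG. CpG pairs numbered 29 in GAD1, 27 and 34 in the windows of GAD2, 29 in GABBR1 and 50 in GABBR2, against a median of 14 over all windows. The GAD2 windows thus held nearly as many CpG pairs as that of GAD1, or more, although GAD2 was hardly read. These matches describe the reference sequence and were not measured in the tumours.

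Among the synthesis genes, GAD1 was read at a low level in every library and GAD2 was read in 1 of 6. GAD1 (GAD67, the enzyme that supplies most resting GABA in neurons, chromosome 2, 170813210 to 170861151, GRCh38) had 33, 32 and 19 reads in distal 1, 2 and 3, against 27, 45 and 24 reads in proximal 1, 2 and 3. These are 1.45, 1.32 and 1.16 CPM in distal and 1.04, 2.08 and 1.08 CPM in proximal libraries. The highest value, proximal 2, and the lowest, proximal 1, both lay in the proximal group, so the distal libraries fell within the proximal range. Exact 95% Poisson intervals reflect only counting error, and they overlapped for proximal 2 (1.52 to 2.78 CPM) and proximal 1 (0.688 to 1.52 CPM). GAD1 averaged 1.31 ± 0.147 CPM in distal and 1.40 ± 0.587 CPM in proximal tumour (n = 3 each, ± SD), a log2 fold change (distal minus proximal) of -0.09 (SE 0.39, 95% interval -0.97 to 0.79). Its adjusted p in edgeR was 0.9997 and its unadjusted p 0.831. Without proximal 2 the value was 0.31, so its sign rested on that library.

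GAD2 (GAD65, the synaptic form of the enzyme, chromosome 10, 26216372 to 26304558) had 0, 5 and 0 reads in distal 1, 2 and 3, and 0 reads in each proximal library. The 5 reads of distal 2 are 0.206 CPM, with a Poisson interval of 0.0669 to 0.481 CPM. A count of 0 allows up to 3 reads as a one-sided 95% limit, which lies below the upper end of the two-sided intervals plotted and is 0.132 CPM in distal 1, 0.183 CPM in distal 3 and 0.116 to 0.139 CPM in the proximal libraries. GAD2 missed the filter on low counts and was not tested. Distal 2 was also the library with most reads of STMN2, the neuronal gene of the title, at 76 reads against 11 and 13 in distal 1 and 3 and 4 to 12 in the proximal libraries, and of SLC32A1, the vesicular GABA transporter, at 11 reads against 4 in distal 1 and 3 and 4 to 9 in proximal. All 10 neuron markers in the table summed to 199.95, 225 and 313 CPM in distal 1, 2 and 3. Their sum was 205, 247 and 237 CPM in proximal 1, 2 and 3. In distal 2, NEFL, NEFM and NEFH had 67.8, 48.9 and 66.6 CPM of the sum and STMN2 3.13 CPM. The sum thus cannot show a rise as small as that of STMN2. No other neuron marker in the table was highest in distal 2 by CPM. MAP2 was lowest there, at 2.43 CPM against 2.69 to 8.24 CPM in the other libraries. SYT1 (synaptotagmin-1) had at most 3 reads in any library. The part of RNA from nerve or other cells in the GAD2 reads was not tested. The 7 inhibitory neuron markers in the table summed to 10.9, 8.98 and 15.5 CPM in distal 1, 2 and 3, against 10.1, 12.1 and 8.13 CPM in proximal 1, 2 and 3. CALB2 (calretinin), with 58 to 167 reads, and the factor LHX6, with 86 to 126 reads, made up most of this sum, while PVALB (parvalbumin, which fast skeletal muscle also makes) had 87 reads in distal 3, 6 in proximal 3 and 0 in the other 4 libraries. VIP had at most 4 reads and NPY at most 6 in any library. These markers were named after their values were seen.

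**Figure D1:**
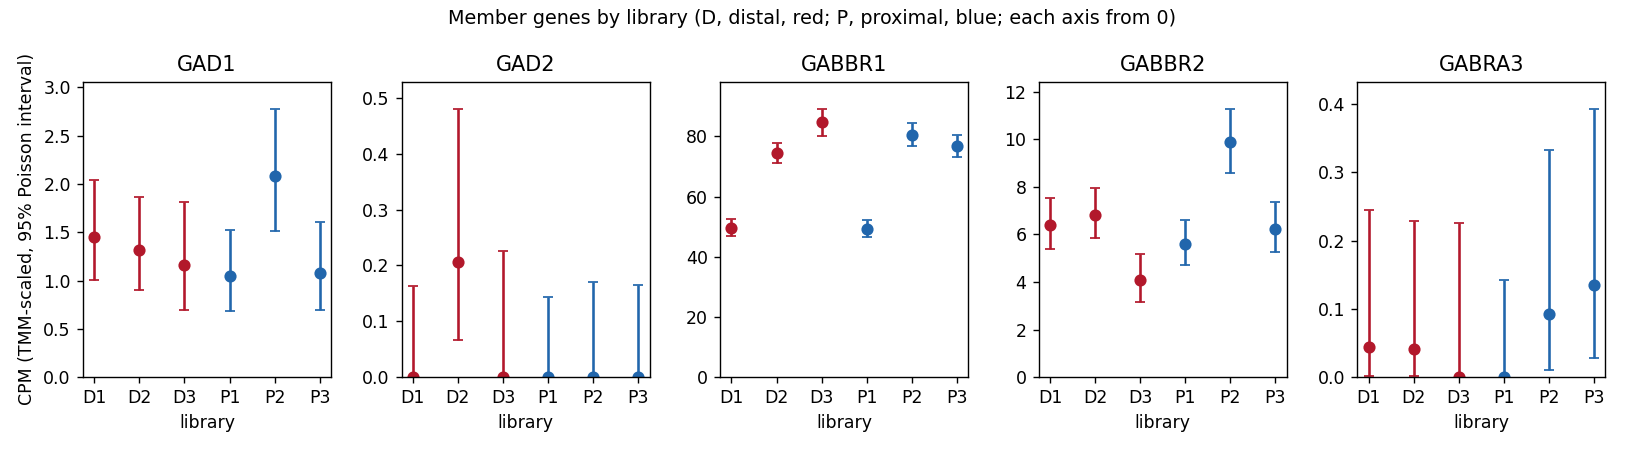
CPM of the 5 genes (vertical axes, each starting at 0) in the 3 distal libraries (D1 to D3, red) and the 3 proximal libraries (P1 to P3, blue), with exact 95% Poisson intervals as bars. GABBR1 sits near 49 to 50 CPM in D1 and P1 and at 74.4 to 84.7 CPM in the other 4 libraries, GABBR2 is highest in P2 and lowest in D3, and GAD2 has reads in D2 only.

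The GABA-B receptor genes were the best read of the 5. GABBR1 (chromosome 6, 29602238 to 29633183) had 1127, 1806 and 1387 reads in distal 1, 2 and 3, against 1276, 1745 and 1712 reads in proximal 1, 2 and 3. These are 49.7, 74.4 and 84.7 CPM in distal and 49.4, 80.6 and 76.9 CPM in proximal libraries. Each region thus held 1 library near 50 CPM and 2 libraries well above it. The Poisson interval of distal 1 (46.8 to 52.6 CPM) and that of proximal 1 (46.7 to 52.2 CPM) lay below those of the other 4 libraries, which began at 71.0 CPM.

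The regional means of GABBR1 were close, at 69.6 ± 18.0 CPM in distal and 68.9 ± 17.1 CPM in proximal tumour (n = 3 each, ± SD). The log2 fold change was 0.01 (SE 0.26, 95% interval -0.62 to 0.64); its adjusted p in edgeR was 0.9997 and its unadjusted p 0.962. Its sign turned without distal 2, distal 3 or proximal 1, at -0.04, -0.15 and -0.18. In GENCODE release 29, 722 exon bases of GABBR1 also belong to UBD on the same strand and to OR2I1P on the other strand. OR2I1P averaged 0.0102 CPM. UBD is not among the counted genes, so its share of the GABBR1 reads was not tested.

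GABBR2 (chromosome 9, 98288109 to 98708935) had 145, 166 and 67 reads in distal 1, 2 and 3, against 145, 214 and 139 reads in proximal 1, 2 and 3. These are 6.39, 6.84 and 4.09 CPM in distal and 5.61, 9.88 and 6.24 CPM in proximal libraries. Proximal 2 was highest, with a Poisson interval (8.60 to 11.3 CPM) above those of all other libraries, and distal 3 was lowest, with an interval (3.17 to 5.20 CPM) that overlapped only that of proximal 1. Distal 3 also held the most muscle transcripts, and their part in its low GABBR2 value was not tested. GABBR2 averaged 5.77 ± 1.47 CPM in distal and 7.24 ± 2.31 CPM in proximal tumour (n = 3 each, ± SD), a log2 fold change of -0.32 (SE 0.28, 95% interval -0.93 to 0.29). Its adjusted p in edgeR was 0.9997 and its unadjusted p 0.273. Without proximal 2 the value was -0.03.

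The excess of GABBR1 over GABBR2 varied between libraries. On the scale of CPM per kilobase of merged exon (lengths from GENCODE release 29), GABBR1 exceeded GABBR2 by 7.00, 9.80 and 18.7 times in distal 1, 2 and 3, against 7.93, 7.35 and 11.1 times in proximal 1, 2 and 3. The 18.7 of distal 3 came with the highest GABBR1 and the lowest GABBR2 value of the 6 libraries. The ranges of the regions overlapped. The size of the excess depends on the length used. Over all libraries GABBR1 averaged 8.18 and GABBR2 0.853 CPM per kilobase of merged exon, but 15.3 and 1.12 per kilobase of longest transcript. In bulk tumour pieces, fewer cells of a type and less RNA per cell cannot be told apart.

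GABRA3 (chromosome X, 152166234 to 152451315) was at the limit of detection. It had 1, 1 and 0 reads in distal 1, 2 and 3, against 0, 2 and 3 reads in proximal 1, 2 and 3, which makes 2 reads in distal and 5 in proximal tumour. No library exceeded 0.135 CPM, and no Poisson interval reached above 0.394 CPM. GABRA3 was not tested, and a difference between the regions was not detectable at this depth.

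Per kilobase of merged exon, the order of levels was GABBR1, GABBR2, GAD1, and then GABRA3 and GAD2. GABBR1 had 8.22 ± 2.13 CPM per kilobase in distal and 8.14 ± 2.01 in proximal tumour, GABBR2 had 0.756 ± 0.193 in distal and 0.949 ± 0.302 in proximal tumour, and GAD1 had 0.159 ± 0.0178 in distal and 0.170 ± 0.0712 in proximal tumour (SD, n = 3 each). The lowest GABBR1 library, at 5.83 CPM per kilobase, lay above the highest GABBR2 library, at 1.29, and the lowest GABBR2 library, at 0.536, above the highest GAD1 library, at 0.252. GABRA3 and GAD2 averaged 0.0124 and 0.0055 CPM per kilobase and did not differ beyond their spread, since both were at 0 in at least 1 library of each region. GABBR1 stood above 59.2%, GABBR2 above 16.9% and GAD1 above 3.69% of the 13200 tested genes with a length. With the longest transcript in place of merged exons the order was the same.

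Of the 5 genes, 3 passed the filter on low counts, 0 of these were called, and 0 had groups that did not overlap, where 6.28% of all tested genes did. An exact permutation test (two-sided, on log2 of CPM + 0.1) gave p = 1 for GAD1, 0.9 for GABBR1 and 0.6 for GABBR2, and with 3 against 3 libraries it cannot go below 0.1. The 95% interval of each of the 3 log2 fold changes lay between -0.97 and 0.79.

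**Figure D2:**
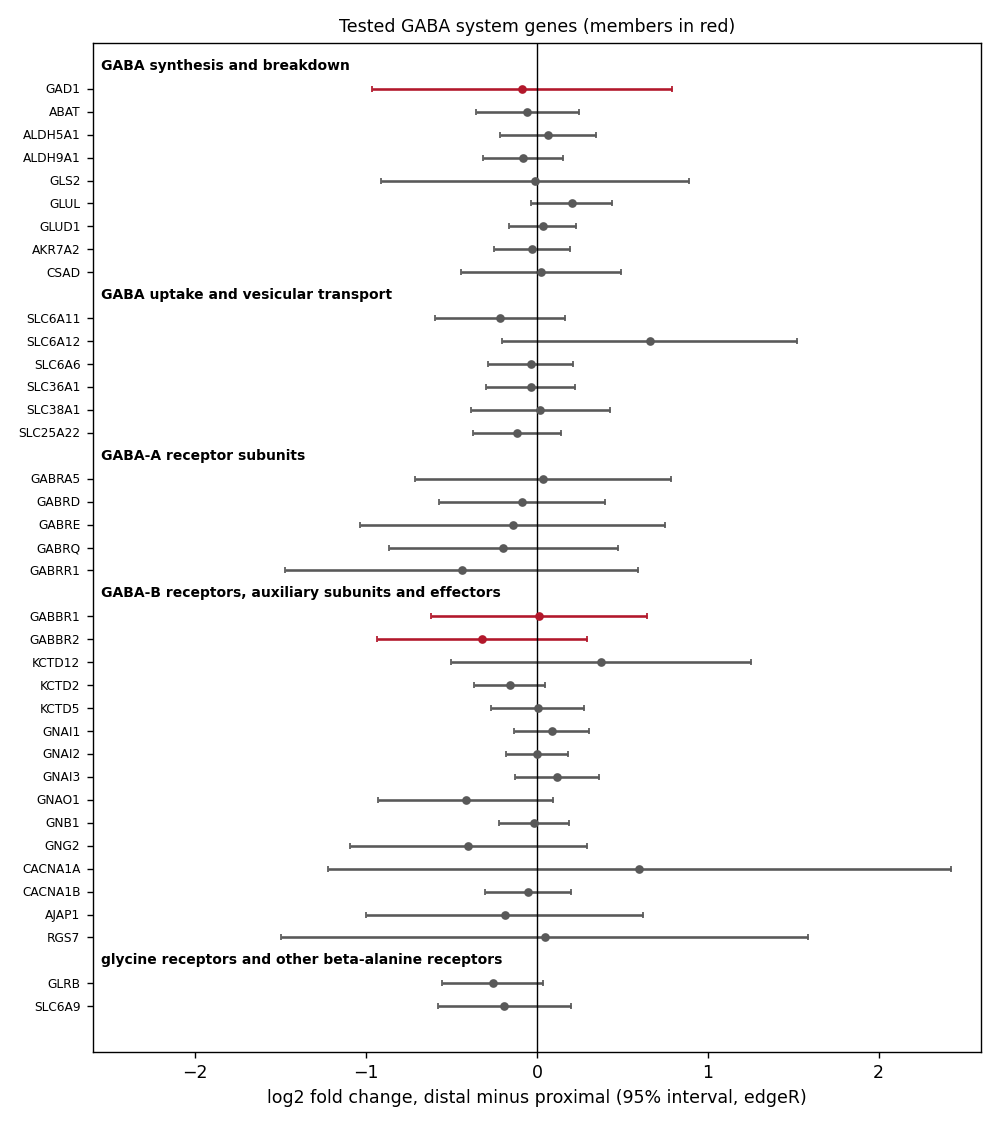
Log2 fold change (distal minus proximal, horizontal axis) with its 95% interval for tested genes of 5 of the lists (synthesis, transport, GABA-A subunits, GABA-B receptor and effectors, glycine receptors), without the scaffold, chloride and developmental factor lists, with GAD1, GABBR1 and GABBR2 in red. Every interval drawn includes 0, while that of DLX2, which is not drawn, does not. Intervals of weakly read genes such as GAD1, SLC6A12 and GABRR1 are wide. Weak reading alone does not set the width, since CACNA1A of these lists, at a mean of 3.66 CPM, spans -1.22 to 2.42.

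Around these genes, 8 lists of the GABA system held 121 genes, of which 114 were in the count table and 78 could be tested. Of the 78, 0 were called, 29 had higher and 49 lower values in distal, and the median log2 fold change was -0.04, beside 0.00 over all tested genes. The groups did not overlap for 3 of the 78 (3.85%), against 6.28% of all tested genes. These were DLX2 and KCTD2, lower in distal, and SLC6A12, higher in distal. For none of the 3 did the adjusted p of edgeR's quasi-likelihood test fall below 0.9997.

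Of the 14 genes of GABA synthesis and breakdown, 10 could be tested and 4, GAD2 among them, had fewer than 10 reads in every library. Of the 10 tested genes 0 were called, with 5 higher and 5 lower in distal and a median log2 change of 0.00. GLUD1 (glutamate dehydrogenase) ran from 201 to 238 CPM over the libraries, ALDH9A1, which makes GABA from a polyamine-derived aldehyde, from 76.1 to 99.6, GLUL (glutamine synthetase) from 73.1 to 103, CSAD, which decarboxylates cysteine sulfinate, from 35.8 to 57.8, and AKR7A2 (succinic semialdehyde reductase) from 36.9 to 41.9. The breakdown enzymes ABAT (GABA transaminase, which also degrades β-alanine) and ALDH5A1 (succinic semialdehyde dehydrogenase), named after their values were seen, had 16.3 to 21.3 and 26.9 to 36.6 CPM. Per kilobase ABAT, at 1.97 CPM, and ALDH5A1, at 5.90 CPM, were thus read more than GAD1, at 0.164 CPM. The lowest p belonged to GLUL and ALDH9A1. GLUL had 94.97 ± 9.23 CPM in distal and 82.4 ± 8.18 CPM in proximal tumour (SD, n = 3 each). Its log2 fold change was 0.20 (SE 0.11), and ran from 0.12 (without proximal 2) to 0.27 (without distal 1) with 1 library left out. ALDH9A1 was at -0.08 (SE 0.11), and ran from -0.18 (without distal 2) to 0.01 (without distal 3). GADL1, a relative of the decarboxylases, had at most 6 reads in any library and MAOB at most 1.

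Several carriers of GABA and β-alanine were read in every library, and the list held 0 called genes among 7 tested, with 2 higher and 5 lower in distal and a median log2 change of -0.04. SLC6A6 (the taurine and β-alanine carrier) had 58.3 to 76.3 CPM, SLC36A1 (a proton-coupled carrier of small amino acids) 32.8 to 40.4, SLC25A22 (a mitochondrial glutamate carrier) 23.0 to 28.9, and SLC38A1 (a glutamine carrier) 769.8 to 1156. Of the GABA transporters, SLC6A11 (GAT-3, which also carries β-alanine) had 13.8, 15.1 and 14.5 CPM in distal 1, 2 and 3, against 15.7, 21.0 and 13.7 CPM in proximal 1, 2 and 3. Proximal 2 was highest, as it was in GAD1 and GABBR2. SLC6A12 (the betaine and GABA carrier BGT-1) had 1.41, 1.36 and 1.53 CPM in distal, against 1.24, 0.831 and 0.629 CPM in proximal libraries, so its distal libraries lay above all proximal ones. Its log2 fold change was 0.66 (SE 0.39), and its adjusted p in edgeR was 0.9997. SLC6A13 (GAT-2) had at most 4 reads in any library.

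The GABA-A subunit genes other than GABRA3 fell into those that were read and those that were nearly absent. Of the 17 in the table, 9 had fewer than 10 reads in every library, GABRA3 among them. GABRD (the δ subunit of receptors outside synapses) had 6.81 to 11.4 CPM, GABRA5 2.64 to 6.78, GABRQ 3.17 to 6.79, GABRE 1.28 to 3.19, GABRR1 0.719 to 1.93 and GABRR2 0.244 to 0.774. Per kilobase GABRD had 1.59 CPM, GABRA5 1.11 and GABRQ 0.723. Of the γ subunit genes, a class that most synaptic receptors include, GABRG1 had at most 3 reads in any library.

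GABRG3, another γ subunit gene, had 6, 21 and 7 reads in distal 1, 2 and 3, against 5, 4 and 1 in proximal 1, 2 and 3, so the groups did not overlap, with distal 2 the highest. GABRA2, an α subunit gene named after its values were seen, had 1, 3 and 0 reads in distal 1, 2 and 3, against 6, 5 and 4 in proximal 1, 2 and 3, so the groups did not overlap in the opposite direction. Both genes missed the filter and were not tested, and the exact two-sided permutation test gave 0.1 for each, the smallest p that 3 against 3 libraries allow. How often groups fail to overlap among genes that missed the filter was not counted, so GABRG3 and GABRA2 have no background share. Among the 6 tested subunit genes 0 were called, with 1 higher and 5 lower in distal and a median log2 change of -0.12. The lowest p belonged to GABRR1, at -0.44 (SE 0.46), which was 0.12 without proximal 1, and to GABRQ, at -0.20 (SE 0.30), which was 0.15 without proximal 2.

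**Figure D3:**
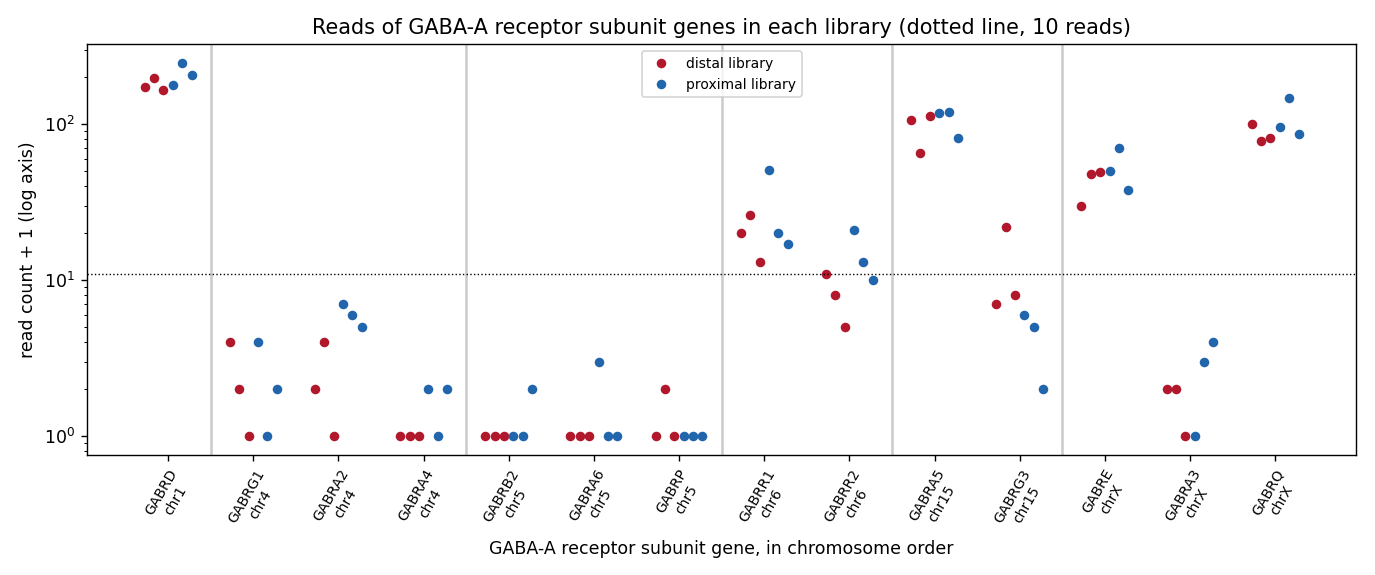
Reads plus 1 (vertical log axis) of GABA-A receptor subunit genes, in chromosome order, with distal libraries in red and proximal libraries in blue. The genes drawn from chromosomes 4 and 5 lie below 10 reads in every library, and GABRA3 lies between the better read GABRE and GABRQ on chromosome X.

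Many GABA-A subunit genes lie in chromosomal clusters. All 3 genes in the table from chromosome 4 (GABRG1, GABRA2, GABRA4), and GABRB2, GABRA6 and GABRP from chromosome 5, had fewer than 10 reads in every library. On chromosome 15 GABRA5 was read throughout, while GABRG3 had 1 to 21 reads. On chromosome X, GABRA3 averaged 0.0521 CPM between GABRE, at 2.15 CPM, and GABRQ, at 4.46 CPM, and was thus the least read of these 3 genes.

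Of the 22 genes of the GABA-B receptor, its auxiliary subunits and effectors, 15 could be tested, and 4 had fewer than 10 reads in every library. Of the 15 tested genes 0 were called, with 8 higher and 7 lower in distal and a median log2 change of 0.00. The G protein genes GNB1, GNAI3, GNAI1 and GNAI2 had 386 to 455, 207 to 284, 192 to 248 and 108 to 123 CPM. GNAO1, the Go α subunit through which the receptor signals in neurons, had 12.2, 11.7 and 10.1 CPM in distal, against 10.6, 20.6 and 14.2 CPM in proximal libraries. The log2 fold change of GNAO1 was -0.42 (SE 0.23). With 1 library left out it ran from -0.63 (without proximal 1) to -0.13 (without proximal 2). Of the auxiliary subunits, KCTD12 had 1.02 to 2.63 CPM, KCTD16 at most 4 reads and KCTD8 at most 1 read in any library. KCTD2, a relative of these, had 40.6, 40.5 and 41.2 CPM in distal, against 44.9, 43.2 and 48.5 CPM in proximal libraries, a log2 fold change of -0.16 (SE 0.09). KCNJ3, a potassium channel subunit opened by GABA-B receptors and named after its values were seen, had 16, 3 and 5 reads in distal 1, 2 and 3, against 11, 132 and 2 in proximal 1, 2 and 3. Most of its reads thus came from proximal 2, the library highest in GAD1, GABBR2, SLC6A11 and GNAO1.

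The remaining lists gave 0 calls as well. Of 18 tested genes of GABA-A receptor scaffold and trafficking, 6 were higher and 12 lower in distal, with a median log2 change of -0.04. UBQLN1 had 179 to 198 CPM, NLGN2 (neuroligin-2, an adhesion protein of inhibitory synapses) 113 to 152, TRAK2 90.1 to 116, NSF 78.8 to 114 and CLPTM1 75.7 to 101. The lowest p were those of GABARAPL1, at 0.38 (SE 0.25), and IQSEC3, at -0.76 (SE 0.50). With 1 library left out, GABARAPL1 ran from 0.06 (without distal 3) to 0.53 (without distal 2). IQSEC3 ran from -1.04 (without proximal 1) to -0.39 (without proximal 2). Among chloride transporters and their kinases 3 of 10 were higher and 7 lower (median -0.04). SLC12A2 (NKCC1, which loads chloride into cells) had 72.8 to 85.9 CPM and SLC12A5 (KCC2, the neuronal chloride extruder) 0.288 to 1.83 CPM. WNK1 had 448.7 to 653, OXSR1 142 to 168, SLC12A4 49.4 to 87.6 and SLC12A7 48.9 to 60.7 CPM. SLC12A5 was at 0.42 (SE 0.61), which was -0.35 without distal 3.

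In the list of glycine receptors and other β-alanine receptors, GLRB and the glycine carrier SLC6A9 could be tested, and both had lower values in distal. GLRB, the β subunit of the glycine receptor, had 27.9, 29.1 and 25.2 CPM in distal, against 34.2, 37.3 and 26.9 CPM in proximal libraries. Its log2 fold change was -0.26 (SE 0.13), and ran from -0.38 (without proximal 3) to -0.16 (without proximal 2) with 1 library left out. SLC6A9 was at -0.19 (SE 0.17), and ran from -0.35 (without distal 1) to -0.07 (without proximal 3) with 1 library left out. The glycine receptor α subunits in the table had at most 2 reads of GLRA2 and 1 of GLRA4, and the β-alanine receptor MRGPRD had 1 read in 1 library.

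By pattern over the 6 libraries, GABBR1 was most like CSAD, NXF1 and ZSWIM8, with Pearson's r of log2 CPM of 0.989, 0.981 and 0.980 among 9583 tested genes that averaged 10 CPM or more. CSAD, a decarboxylase also in the synthesis list, had 36.5, 48.2 and 57.8 CPM in distal 1, 2 and 3, against 35.8, 54.4 and 49.99 CPM in proximal 1, 2 and 3. As in GABBR1, distal 1 and proximal 1 were lowest and distal 3 highest. CSAD was picked for its likeness to GABBR1 in these libraries, so this match follows from the choice. NXF1 is an exporter of mRNA from the nucleus and ZSWIM8 a ubiquitin ligase adaptor.

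GAD1 was most like CENPM (0.995), a centromere protein, C11orf49 (0.993) and POLQ (0.992), a DNA polymerase, all highest in proximal 2. GABBR2 was most like NACC1 (0.996), ZFAND4 (0.994) and YWHAH (0.994), all lowest in distal 3 and highest in proximal 2. At an r of at least 0.9 there were 62 of 9584 genes for GAD1, 101 of 9583 for GABBR1 and 162 of 9584 for GABBR2. How many such genes an unrelated gene has was not counted, so these counts have no background share. The coefficients rest on 6 libraries, and each gene of a pair was read in the same libraries, which differ in depth and in muscle transcripts. The genes named as most like each were picked by these coefficients, so their shared highs and lows follow from the choice. Between the genes themselves, r was 0.79 for GAD1 with GABBR2, 0.22 for GAD1 with GABBR1 and 0.06 for GABBR1 with GABBR2.

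**Figure D4:**
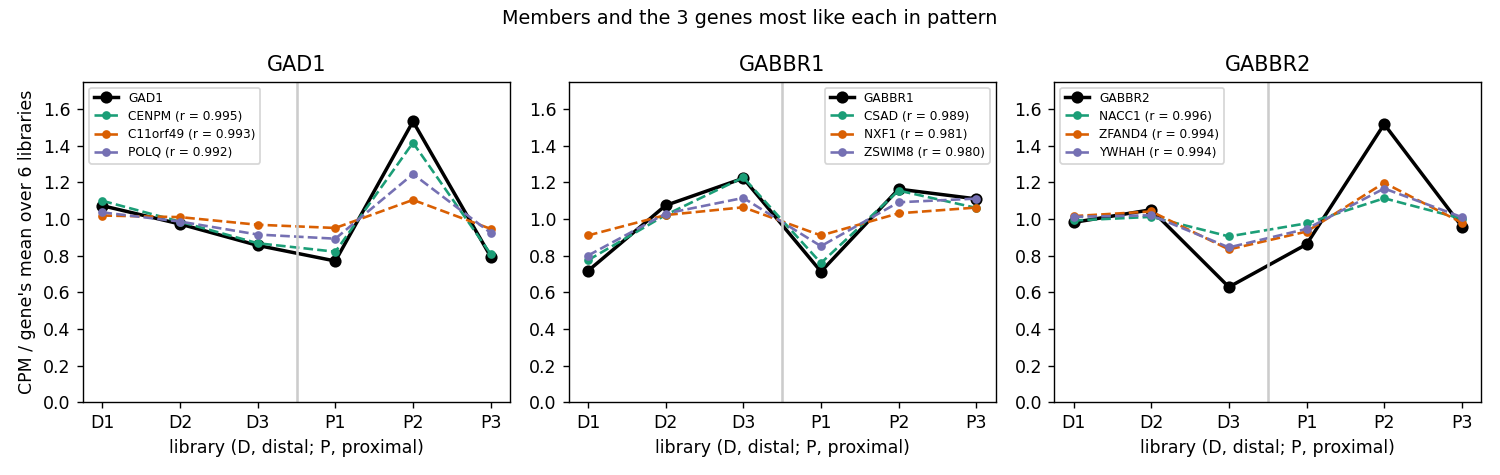
CPM divided by each gene's mean over the 6 libraries (vertical axis) for GAD1, GABBR1 and GABBR2 (black) and the 3 genes most like each (dashed), in the distal libraries (D1 to D3) and then the proximal libraries (P1 to P3). GABBR1 and CSAD are low in D1 and P1 together, and GAD1 and GABBR2 with their nearest genes peak in P2. The dashed genes were picked for this likeness.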

How the data were processed

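TruSeq libraries were prepared from poly(A) RNA whose integrity number exceeded 7, per the labels' protocols. The deposited values are raw read counts for each gene symbol, not normalized by the authors. The submitters' processing notes name STAR 2.7.3a, featureCounts 2.0.1, Trimmomatic 0.39, bcl2fastq and DESeq2, and build GRCh38. The annotation, the strand setting and how host reads were handled are not given there, so reads of host tissue or of overlapping genes could be part of a count.

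The counts were tested with edgeR 4.0.16 in R 4.3.3 (expression filter by group, TMM scaling, robust quasi-likelihood test, Benjamini-Hochberg adjustment over all tested genes at 0.05), with the group as the design. SE = |log2 fold change| / √F. CPM use TMM-scaled totals. The procedure was tested on simulated data. Alternatives were other scalings and filters, DESeq2 1.42.0, limma-voom (limma 3.58.1), a replicate block and left-out libraries. Same-numbered libraries were not taken as pairs. The genes, lists and rule for named genes were chosen with earlier results of these data known. The rule took the 5 genes, up to 6 genes per list with a mean of at least 10 CPM, the 2 with the lowest p per list, subunit genes with at least 10 reads in a library, and the 3 genes nearest in pattern. Some genes that the rule named are not reported here, in text or figures, but stay in the counts. Lengths came from GENCODE release 29, which matched 16800 symbols. Positions and promoters came from RefSeq (GRCh38.p14). Figures were drawn with matplotlib 3.10.9.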

Additional observations from a re-analysis of the deposited data

How the results depend on the processing

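Over 15 alternatives, 0 of the 5 genes and 0 genes of the 8 lists were called in any fit, and the adjusted p of GAD1, GABBR1 and GABBR2 ran from 0.998 to 1.00. Over all genes the count was 0 except 1 (EDIL3) with DESeq2 and 1 (EDIL3) without distal 1. GABBR2 was below 0 in every alternative, from -0.48 (without proximal 1) to -0.03 (without proximal 2) with 1 library left out. GAD1 was 0.0068 with limma-voom and ran from -0.27 to 0.31 with 1 library left out, and GABBR1 ran from -0.18 to 0.20. Without both distal 3 and proximal 3, GABBR1 was at -0.06, SLC12A5 at -0.17 and SLC6A9 at 0.011. With 1 library left out, signs also turned for ALDH9A1 (0.013) and SLC12A5 (-0.35) without distal 3, GABRR1 (0.12) without proximal 1 and GABRQ (0.15) without proximal 2. Over all alternatives GABRR1 reached -0.69 without proximal 3, SLC12A5 0.87 without distal 2, and GABRQ -0.47 without both distal 3 and proximal 3. The cause of these turns was not tested. Same-numbered libraries deviated together for number 1 (r = 0.63) and number 3 (0.40) but not number 2 (-0.13). The labels do not say that the numbers pair samples, so they were not taken as pairs. Over genes with at least 10 reads in a pair, distal 1 and proximal 1 were the most alike of all library pairs. Their chi-square per degree of freedom was 5.63, against 7.78 to 47.2 for other pairs. GABBR1 and CSAD were lowest in these same libraries. With the replicate block 0 genes were called, and the log2 fold changes were -0.04 for GAD1, 0.01 for GABBR1 and -0.31 for GABBR2. CPM on library totals alone moved no value of the 5 genes by more than 1 SD of its group. Depth limits GAD2 and GABRA3, for which only counts with their limits can be given.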

Other observations

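Of the transcription factors of GABA neuron development, 10 could be tested and 0 were called (4 higher and 6 lower in distal, median log2 fold change -0.05). DLX2, a homeobox factor of forebrain interneuron precursors, had 0.529, 0.330 and 0.427 CPM in distal 1, 2 and 3, against 0.813, 0.924 and 0.943 CPM in proximal 1, 2 and 3, so all distal libraries lay below all proximal ones. These values rest on 12, 8 and 7 reads in distal and 21, 20 and 21 reads in proximal libraries. The log2 fold change of DLX2 was -1.05 (SE 0.43), with an adjusted p of 0.9997 in edgeR and an unadjusted one of 0.0344. The unadjusted p was 0.0317 with limma-voom, 0.128 with DESeq2 and 0.0530 to 0.130 in edgeR with 1 library left out. Of the 78 tested list genes, 1 (1.28%) had an unadjusted p below 0.05 in edgeR, against 1.33% of all tested genes. Its paralogue and neighbour DLX1 had 1.63, 2.51 and 1.77 CPM in distal, against 1.59, 3.09 and 1.62 CPM in proximal libraries, with overlap of the regions. DLX6, at 4.80 to 7.88 CPM, was at 0.26 (SE 0.23) on the log2 scale, and ran from 0.10 (without distal 3) to 0.42 (without distal 1). LHX6, at 3.97 to 5.31 CPM, varied little, and GATA3, which is also a factor of many epithelia, had 96.2 to 132 CPM.

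The positional neighbours of the 5 genes were read very unevenly. Neighbours here are the nearest genes by RefSeq position that are in the count table, so uncounted genes may lie between. GABBR1 was the only gene read above 1 CPM among itself and 4 neighbours by RefSeq position. These neighbours, OR2J3, OR2H2, MOG and ZFP57, averaged at most 0.0945 CPM. OR2I1P, which shares exon bases with GABBR1, is not among them and averaged 0.0102 CPM. GABRA3 lay 2 counted genes from MAGEA4, a cancer-testis antigen gene on chromosome X at 149 to 200 CPM. GAD1 lay between ERICH2, at 0.330 to 0.658 CPM, and GORASP2, at 45.9 to 52.1 CPM. GAD2 lay between GPR158, at 0.488 to 1.43 CPM, and APBB1IP, at most 0.244 CPM. GABBR2 lay between TBC1D2, at 2.22 to 3.51 CPM, and ANKS6, at 38.4 to 47.1 CPM. Across genes of the table with a promoter window, the median level was 0.329 CPM for 2506 genes with fewer than 10 CpG pairs in the window and 33.1 CPM for 3831 genes with 20 to 29, the class that holds GAD1, GABBR1 and the first window of GAD2.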
